A study of Mus musculus with 8 samples.

Results

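The genes that move and buffer zinc were followed in islets with Notch activity switched on in β cells. They are the Slc30a zinc exporters Slc30a1, Slc30a4, Slc30a5, Slc30a6, Slc30a7, Slc30a8, Slc30a9 and Slc30a10 and the metallothioneins Mt1 and Mt2. They were chosen by symbol, as 10 of the 32531 rows of the deposited gene count table. RNA was sequenced from islets of 4 control mice (RIP-Cre+, Rosa26-rtTA+, tetO_NICD-) and 4 β-tetO-NICD mice (RIP-Cre+, Rosa26-rtTA+, tetO_NICD+). All 8 had doxycycline (Dox) in the drinking water for 8 weeks and shared a mixed background of C57BL/6J, 129X1/SvJ and BALB/c, and no age is given in the labels. Controls thus also carried Cre and rtTA and also received Dox. Dox induces NICD, the active intracellular domain of Notch1, where an insulin promoter (RIP) has driven Cre, so the model is limited to cells in which that promoter is or was active, whereas the RNA came from whole islets. Islets and libraries of β-tetO-NICD mice are called Notch-active below.

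Zinc is pumped into insulin granules, where it binds insulin into crystals that are released together upon secretion. Slc30a proteins (ZnT) move zinc out of the cytosol, either out of the cell or into granules, endosomes and Golgi, while Slc39a proteins (ZIP) bring it into the cytosol. Metallothioneins are small cysteine-rich proteins that bind zinc in the cytosol, and their genes are switched on by zinc through the factor Mtf1, which binds metal response elements, and also by glucocorticoids and other stresses.

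Promoters are shown for Mt1, Mt2 and Slc30a1, the members best known as zinc-induced genes. Each window runs from 250 bases before to 50 bases after the start site (RefSeq, GRCm38.p6), is written 5′ to 3′ on the + strand, which is the coding strand of all 3 genes, and has every match to the metal response element core in capitals. The core was searched on both strands as TGCACNC or TGCGCNC, so a capital run that reads otherwise is its reverse complement. The windows are chr8:94178839-94179138 for Mt1, chr8:94172368-94172667 for Mt2 and chr1:191906531-191906830 for Slc30a1.
Mt1: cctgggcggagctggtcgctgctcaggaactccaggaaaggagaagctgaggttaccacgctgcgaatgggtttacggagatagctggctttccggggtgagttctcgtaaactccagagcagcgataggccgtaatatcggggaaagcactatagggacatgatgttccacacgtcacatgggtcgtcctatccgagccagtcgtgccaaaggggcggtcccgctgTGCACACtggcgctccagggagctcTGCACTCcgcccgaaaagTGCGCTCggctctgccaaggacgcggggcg
Mt2: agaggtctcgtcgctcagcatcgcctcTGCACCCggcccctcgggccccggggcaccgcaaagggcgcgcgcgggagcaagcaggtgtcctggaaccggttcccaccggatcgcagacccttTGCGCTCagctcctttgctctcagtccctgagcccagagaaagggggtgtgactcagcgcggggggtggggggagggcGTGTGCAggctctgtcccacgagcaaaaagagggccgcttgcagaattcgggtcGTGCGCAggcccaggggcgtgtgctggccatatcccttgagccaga
Slc30a1: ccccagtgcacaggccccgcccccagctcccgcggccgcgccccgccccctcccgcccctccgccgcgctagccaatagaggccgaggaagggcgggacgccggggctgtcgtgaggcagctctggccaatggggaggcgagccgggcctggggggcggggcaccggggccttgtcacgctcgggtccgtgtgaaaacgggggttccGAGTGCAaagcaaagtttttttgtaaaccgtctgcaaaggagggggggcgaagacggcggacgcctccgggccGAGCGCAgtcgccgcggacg

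The Mt2 window held 4 cores, the Mt1 window 3 and the Slc30a1 window 2. Of the other members, Slc30a4 and Slc30a10 had 3, Slc30a5 had 1, and Slc30a6, Slc30a7 and Slc30a9 had 0. Among 32851 promoter windows of the same length, 25.7% held at least 1 core and 1.97% held at least 3. The letters GTGGGAA, a motif of the Notch cofactor RBPJ, were searched in the same way and occurred 1 time each in the windows of Mt2 and Slc30a9, against 6.38% of all windows with at least 1. A match describes the letters and not binding, and the absence of a match says only that the letters are not in the window. A window was found for 9 of the 10 members, not for Slc30a8.

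Libraries held between 21701223 and 26413146 counts. Levels are given as CPM, counts scaled to library size, with the TMM correction of edgeR. Its quasi-likelihood test was run on 15082 genes, over all of which the Benjamini-Hochberg adjustment was made, and adjusted p refers to it unless another test is named. As a check of the labels, Notch1, the source of the NICD transgene, had 1051 to 1562 counts in controls and 11388 to 36628 in Notch-active islets. All 5 Notch target genes of a list (Hes1, Hes5, Hey1, Heyl and Nrarp) were higher (edgeR adjusted p between 8.52e-05 and 0.000661). The β cell, α cell and acinar markers were detected in every library. Libraries also differed in how their expression followed transcript length across 14655 genes. This length correlation (Spearman's rho, a description across genes) was 0.418, 0.467, −0.174 and 0.497 in controls 1 to 4 and 0.446, −0.521, −0.360 and −0.515 in Notch-active libraries 1, 2, 4 and 5. Eif2s3y, a Y-linked gene, was at 1300 to 1527 counts in controls 2 and 4 and in Notch-active library 5, with at most 1 count in each of the rest, whereas the methods state that gene expression was measured in males. Nothing in the labels says that mice were pooled, so each library was treated as 1 mouse.

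Of the 10 members, 9 were expressed well enough to be tested, and 1 of these, Slc30a7, was lower in Notch-active islets, where 2.57% of all genes tested were called lower. None was higher by edgeR's test, where 4.19% of all genes were called higher. Without adjustment, 3 of the 9 members (Slc30a4, Slc30a7 and Slc30a8, all with estimates below 0) and 4769 of the 15082 genes had p under 0.05, and DESeq2's Wald test called 2 members lower and 0 higher, against 8.25% and 9.91% of all genes. Estimates were below 0 for 7 of the 9, and their median log2 fold change was −0.37 against 0.00071 for all genes tested. The values of controls and Notch-active islets did not overlap for 2 of the 9, Slc30a7 and Slc30a5, where 16.1% of all genes had no overlap.

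**Figure D1:**
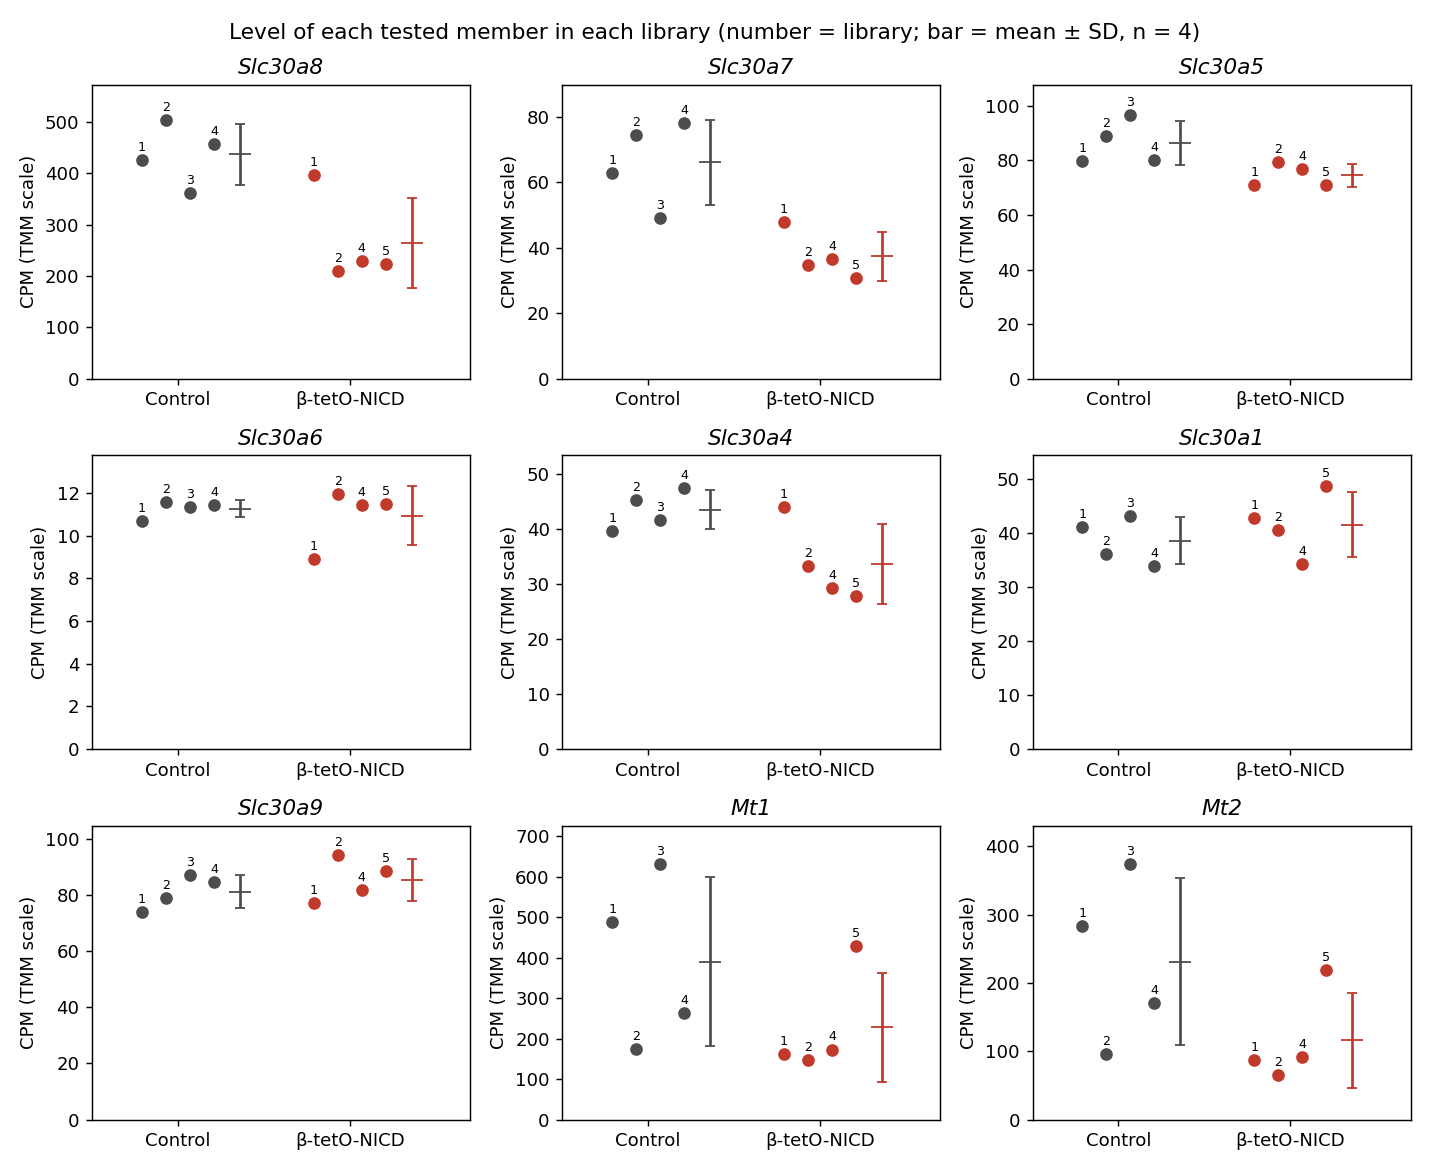
CPM (TMM scale) of each of the 9 tested members in each library, with the library number beside each point and the mean ± SD (n = 4) at the right of each group. Notch-active library 1 sits at 397 CPM of Slc30a8 while the other 3 sit between 210.0 and 230.1, and Mt1 and Mt2 are spread widely in controls.

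Slc30a8 encodes ZnT8, which loads zinc into insulin granules and is a target of autoantibodies in type 1 diabetes. The gene lies on chromosome 15 from 52295553 to 52335798 (GRCm38, + strand). Its level was 426, 504, 361 and 458 CPM in controls 1 to 4. In Notch-active libraries 1, 2, 4 and 5 it was 397, 210.0, 230.1 and 223 CPM. Notch-active libraries 2, 4 and 5 lay below every control, and library 1 lay above control 3, so the groups overlapped through that pair. Controls averaged 438 ± 60.0 CPM and Notch-active islets 265 ± 88.2 CPM (SD, n = 4 for each). The log2 fold change was −0.72 (standard error 0.23, 95% interval −1.24 to −0.21), which did not pass the threshold (edgeR adjusted p = 0.0808). Without Notch-active library 1 it was −0.98 and passed (adjusted p = 0.00511). DESeq2's Wald test also passed it (adjusted p = 0.0181), as did edgeR with an acinar marker score as a covariate (adjusted p = 0.0426). These were the 3 of 22 alternative fits in which it passed, and without Notch-active library 1 as many as 4954 of 14902 genes were called. Among the libraries without Eif2s3y counts it was −0.49 (edgeR adjusted p = 0.591).

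Slc30a8 was set against other products of the β cell. Insulin, read as Ins1 plus Ins2, is the cargo that ZnT8 supplies with zinc. Slc30a8 counts were 0.204% to 0.325% of insulin counts in controls and 0.143% to 0.625% in Notch-active islets. The β-tetO-NICD range enclosed that of the controls. The mean log2 ratio was −8.50 ± 0.31 (SD, n = 4) in controls and −8.60 ± 0.93 (SD, n = 4) in Notch-active islets, a difference of −0.10 (exact two-sided permutation test, p = 0.83, and 0.83 adjusted over the 3 ratios compared). The sign turned when Notch-active library 2 or 5 was left out (0.06 and 0.18). Without Notch-active library 1 the difference was −0.53 (exact permutation p = 0.114), and with the β cell list without insulin as the denominator it was 0.59 (exact permutation p = 0.0857).

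The β cell and α cell lists give the background for Slc30a8, which α cells also express at a lower level. Of 10 β cell genes, 3 were lower (G6pc2, Slc2a2 and Ucn3, with log2 fold changes of −2.41, −1.80 and −1.11 and edgeR adjusted p = 0.000138, 0.0331 and 0.0274) and 0 were higher. Their summed level was 157026 to 197498 CPM in controls and 72080 to 171941 CPM in Notch-active islets. Among α cell genes, Irx1, Irx2 and Gc were higher (log2 fold changes 1.46, 1.30 and 2.62, edgeR adjusted p = 0.0301, 0.0431 and 0.000159), and the sums of the list were 12137 to 43263 CPM in controls and 55923 to 70982 CPM in Notch-active islets, with no overlap. The paper reports that the ratio of β to α cells did not change in this model on Dox, against controls without Cre. Its lineage tracing gave no sign of β cells turning into α cells. From the RNA of whole islets alone, fewer cells of a type and less RNA per cell cannot be told apart. δ cell markers summed to 2439 to 6588 CPM in controls and 5087 to 14146 CPM in Notch-active islets, which overlapped, and 1 of 4, Hhex, was higher (log2 fold change 1.01, edgeR adjusted p = 0.0436). The sums of these lists were mostly hormone RNA, from Ins1 and Ins2, from Gcg and from Sst. None of these hormone genes passed (edgeR adjusted p = 0.213, 0.295, 0.0622 and 0.0619), so the sums do not describe the lists as a whole. Macrophage markers summed to 156 to 209 CPM in controls and 228 to 329.6 CPM in Notch-active islets, with 1 of 8, C1qa, higher. With 1 library left out, the genes called numbered 1 to 4 in the β cell list, 1 to 6 in the α cell list and 0 to 3 in the δ cell list. The part of cell composition in the level of any member was not tested. Acinar markers summed to 113411 CPM in Notch-active library 1, the library with the high Slc30a8, and to 31748 to 62739 CPM in the other 3.

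Slc30a7 resides in the Golgi, where it supplies zinc to enzymes of the secretory pathway. It lies on chromosome 3 from 115938973 to 116007406 (GRCm38, − strand). Control libraries 1 to 4 had 62.9, 74.2, 48.9 and 77.9 CPM. Notch-active libraries 1, 2, 4 and 5 had 47.8, 34.5, 36.4 and 30.6 CPM. The groups did not overlap, although control 3 and Notch-active library 1 differed by little. The gene fell from 66.0 ± 13.1 CPM to 37.3 ± 7.39 CPM (SD, n = 4 for each), with a log2 fold change of −0.82 (standard error 0.19, 95% interval −1.25 to −0.39, edgeR adjusted p = 0.0359). It passed the threshold in 12 of 22 alternative fits and in only 2 of the 8 that left out 1 library, those without control 3 or Notch-active library 1. The 6 others gave log2 fold changes of −0.83 to −0.73 with adjusted p between 0.0760 and 0.121. Among the libraries without Eif2s3y counts the log2 fold change was −0.49 (edgeR adjusted p = 0.435), and with Eif2s3y as a covariate it was −0.78 (edgeR adjusted p = 0.0741).

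Both genes varied with the length correlation of their libraries. Among libraries in which it was above 0, Slc30a8 was 426 to 504 CPM in 3 controls and 397 CPM in the 1 Notch-active library. Among those in which it was below 0, Slc30a8 was 361 CPM in control 3 and 210.0 to 230.1 CPM in 3 Notch-active libraries. Slc30a7 was 62.9 to 77.9 against 47.8 CPM in the first set and 48.9 against 30.6 to 36.4 CPM in the other. Both genes were thus lower in Notch-active islets within each set, each of which held 1 library of a group and has no test. Longest annotated transcripts measure 9020 bases for Slc30a7 and 1971 for Slc30a8, but the median Slc30a7 transcript measures 1768. With an offset computed from the longest transcripts the log2 fold change of Slc30a7 was −0.28 (edgeR adjusted p = 0.135). With one computed from median lengths, added after the data were seen, it was −0.81 and passed (adjusted p = 0.0274). For Slc30a8 the offsets from longest and median transcripts gave −0.93 and −0.68, and neither passed (edgeR adjusted p = 0.0772 and 0.0666). With the length correlation itself as a covariate, also added after the data were seen, the log2 fold changes were −0.46 for Slc30a7 and −0.33 for Slc30a8, and neither passed (edgeR adjusted p = 0.133 and 0.282).

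Reads of Slc30a7 may also be divided with other loci. Of its 11133 transcript words of 31 bases, the default unit that Kallisto matches, 15.9% occur in other genes, most of them in the pseudogene Gm6649, which overlaps Slc30a7 on the opposite strand. Of the words of Slc30a8, 1.19% occur elsewhere.

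Slc30a5 and Slc30a6 form a pair in the early secretory pathway, where they act together as a zinc transporter. Slc30a5 had 79.7, 89.1, 96.6 and 80.2 CPM in controls 1 to 4. Its β-tetO-NICD values were 70.9, 79.5, 76.8 and 71.0 CPM. All 4 lay below the lowest control, the closest only just, and the log2 fold change of −0.21 (standard error 0.13) did not pass (adjusted p = 0.262). Slc30a6 had 10.7 to 11.6 CPM in controls and 8.89 to 11.96 CPM in Notch-active islets. Its ranges overlapped, with a log2 fold change of −0.04 (95% interval −0.38 to 0.30, edgeR adjusted p = 0.866). Its sign turned with upper-quartile normalization and without Notch-active library 1.

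Slc30a4 loads zinc into endosomes and lysosomes. Its controls had 39.6, 45.2, 41.5 and 47.4 CPM, and Notch-active libraries 1, 2, 4 and 5 had 43.9, 33.2, 29.3 and 27.9 CPM. Notch-active library 1 lay among the controls and the other 3 lay below them, as for Slc30a8. The log2 fold change was −0.37 (standard error 0.17, edgeR adjusted p = 0.158), and without Notch-active library 1 it was −0.53 and passed (adjusted p = 0.0188). It did not pass in the other 21 alternative fits, and it was −0.11 and −0.08 with the offsets from longest and median transcripts, −0.16 with the length correlation covariate and −0.19 among the libraries without Eif2s3y counts.

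Slc30a1 exports zinc across the plasma membrane and, as shown above, has 2 metal response element cores in its window. It had 41.1, 36.1, 43.0 and 33.8 CPM in controls and 42.7, 40.5, 34.2 and 48.6 CPM in Notch-active islets. The ranges overlapped, and the log2 fold change of 0.11 (95% interval −0.23 to 0.44) did not pass (edgeR adjusted p = 0.633). It was −0.10 among the libraries without Eif2s3y counts. Slc30a9, of mitochondria, had 73.9 to 87.0 CPM and 77.1 to 94.1 CPM, which overlapped (log2 fold change 0.07, 95% interval −0.21 to 0.36, edgeR adjusted p = 0.705). Slc30a10, known chiefly as a manganese exporter, had 0 counts in every control and 1, 1, 1 and 2 counts in Notch-active libraries 1, 2, 4 and 5. All these lie under the floor of 3 counts that a count of 0 allows, at most 0.138 CPM before the TMM correction, so the gene was not tested and no fold is given.

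**Figure D2:**
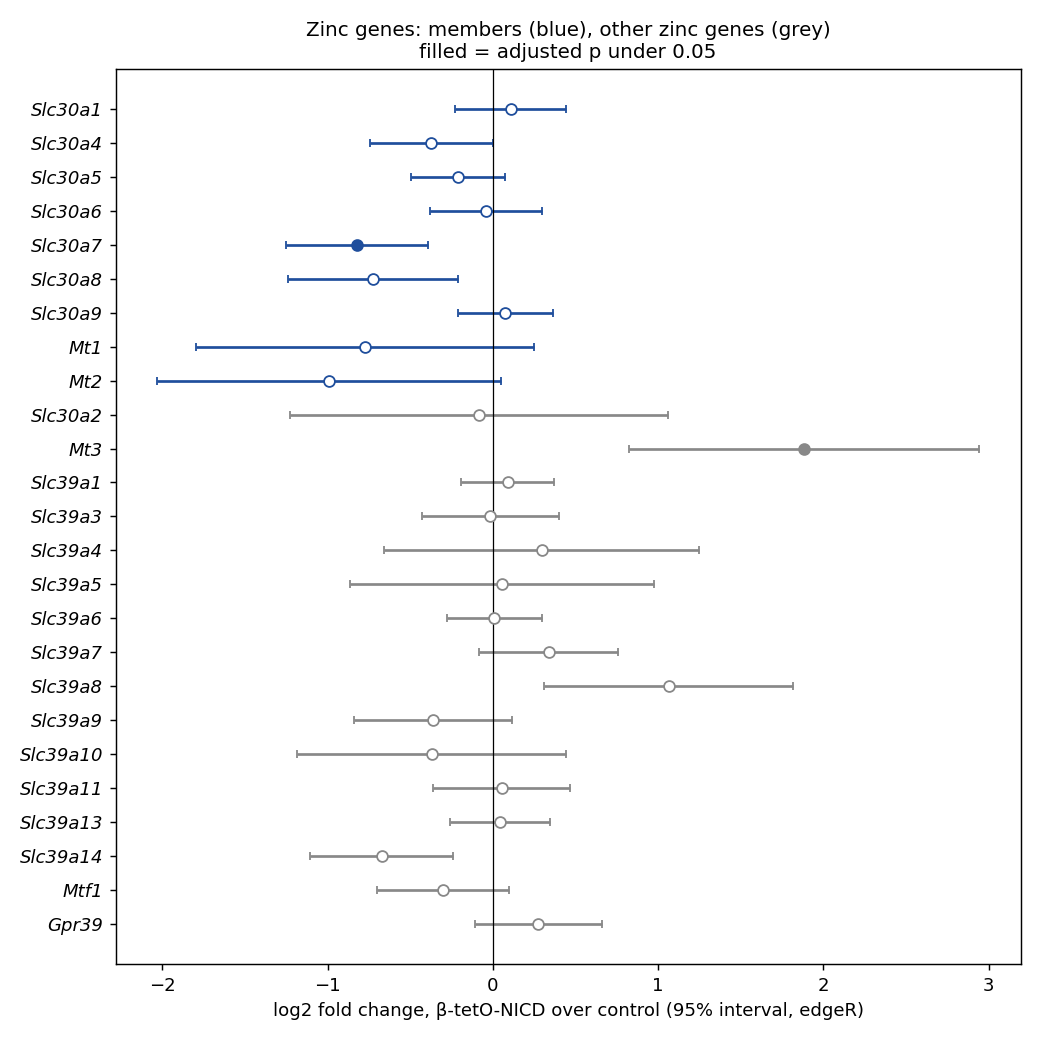
Log2 fold change (β-tetO-NICD over control) with its 95% interval from edgeR for each tested zinc gene, members in blue and the other zinc genes in grey. Filled points, Slc30a7 at −0.82 and Mt3 at 1.88, have an adjusted p under 0.05.

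Levels were compared between members per kilobase of the longest transcript. The control means in CPM per kilobase were 453 for Mt2, 359 for Mt1 and 222 for Slc30a8, whose ranges overlapped between neighbors. Slc30a5 (21.6) and Slc30a9 (14.2) followed, each clear of its neighbors in both groups on this scale. Slc30a4 (7.96), Slc30a1 (7.35) and Slc30a7 (7.32) overlapped one another in controls, and Slc30a6 (5.24) lay just below Slc30a7. In Notch-active islets the mean level of Slc30a7 was 4.14 and overlapped Slc30a6 at 5.09 CPM per kilobase. By median transcript length instead, Slc30a7 was the highest of the Slc30a members after Slc30a8 in controls (37.3 CPM per kilobase), Mt1 lay above Mt2 in both groups, and Slc30a9 lay above Slc30a5 in Notch-active islets, so the order depends on the transcript used.

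Slc30a8 made up most of the Slc30a counts of the members when these were scaled by the longest transcript. The size of the share depends on that scaling. Its share was 78.3%, 79.8%, 73.6% and 78.4% in controls 1 to 4 and 78.0%, 64.1%, 68.1% and 66.7% in Notch-active libraries 1, 2, 4 and 5. The groups overlapped through control 3 and Notch-active library 1. The mean share was 77.5% ± 2.72 (SD, n = 4) in controls and 69.2% ± 6.05 (SD, n = 4) in Notch-active islets, a difference of −8.29 percentage points (exact two-sided permutation test, p = 0.0571, and 0.0857 adjusted over the 3 ratios compared). For the share of raw counts, without length scaling, the difference was −9.61 percentage points (exact permutation p = 0.0571).

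Mt1 and Mt2 lie 5513 bases apart on chromosome 8 (Mt2 from 94172664 to 94173568, Mt1 from 94179082 to 94180327, GRCm38, both on the + strand). Mt1 was 488, 174, 632 and 264 CPM in controls 1 to 4 and 163, 146, 173 and 428 CPM in Notch-active libraries 1, 2, 4 and 5. Controls 1 and 3 were high and controls 2 and 4 low, while Notch-active library 5 stood above the other 3 of its group. The means of 390 ± 209 and 228 ± 134 CPM (SD, n = 4 per group) gave a log2 fold change of −0.77 (standard error 0.46, edgeR adjusted p = 0.257), which was −0.44 without control 3 and −1.27 without Notch-active library 5. Mt2 was 283, 96.6, 375 and 170 CPM in controls and 87.7, 65.7, 92.3 and 219 CPM in Notch-active islets. The same libraries were high and low as for Mt1, the groups overlapped, and the log2 fold change of −0.99 (standard error 0.47, 95% interval −2.03 to 0.05) did not pass (edgeR adjusted p = 0.174). Without control 3 it was −0.66 and without Notch-active library 5 −1.49.

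**Figure D3:**
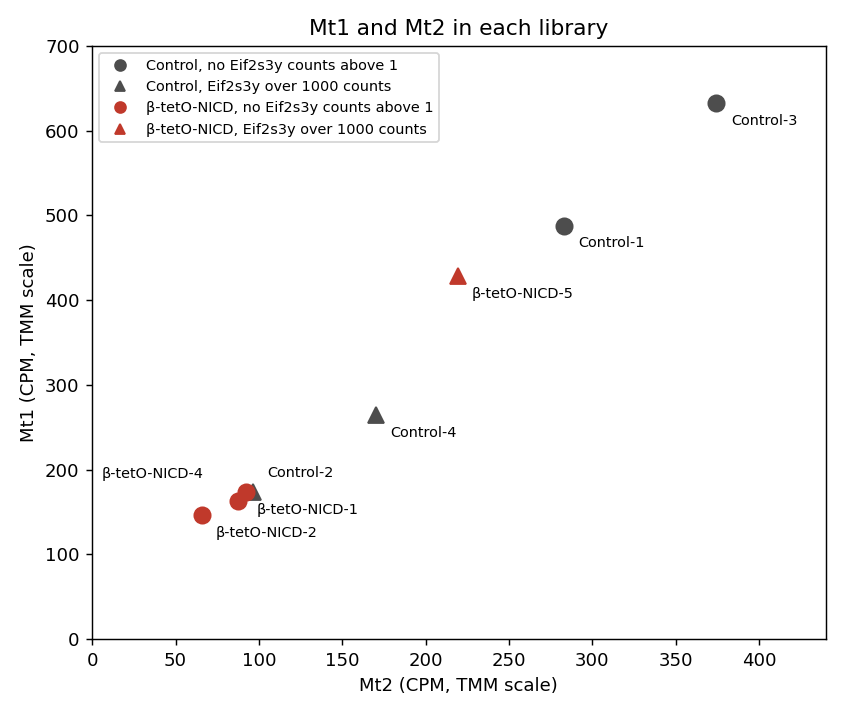
Mt1 against Mt2 in CPM (TMM scale) for each of the 8 libraries, controls in grey and β-tetO-NICD in red, with triangles for the libraries that had Eif2s3y counts. Controls 1 and 3 are highest, and Notch-active libraries 1, 2 and 4 lie at 146 to 173 CPM of Mt1.

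Metallothionein levels were also read separately in libraries with and without Eif2s3y counts, a split taken from the data and not from the labels. In the 5 libraries without Eif2s3y counts, Mt1 was 488 and 632 CPM in controls 1 and 3 and 146 to 173 CPM in 3 Notch-active libraries. There the log2 fold changes were −1.79 for Mt1 and −2.0 for Mt2, and both passed (edgeR adjusted p = 0.0233 for each). In the 3 libraries with Eif2s3y counts, Mt1 was 174 and 264 CPM in controls 2 and 4 and 428 CPM in Notch-active library 5. That contrast points the other way and rests on 1 Notch-active library. The difference between the 2 contrasts, a test chosen after the data were seen, was 2.77 for Mt1 (standard error 0.38, edgeR adjusted p = 0.0859) and 2.72 for Mt2 (standard error 0.46, adjusted p = 0.141), and neither passed. The estimates and calls also depended on length correction. With the offset from longest transcripts both genes passed (log2 fold changes −1.31 and −1.73, edgeR adjusted p = 0.0456 and 0.0167). With the offset from median lengths neither did (−0.97 and −1.37, edgeR adjusted p = 0.146 and 0.0578). Neither passed with the length correlation covariate (−1.30 and −1.47, edgeR adjusted p = 0.212 and 0.179).

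The ratio of the pair stayed between 1.55 and 2.22 over the 8 libraries. Mt1 counts were 1.72, 1.80, 1.69 and 1.55 times those of Mt2 in controls 1 to 4 and 1.86, 2.22, 1.88 and 1.95 times in Notch-active libraries 1, 2, 4 and 5. Every Notch-active library had a higher ratio than every control. The mean log2 ratio was 0.76 ± 0.09 (SD, n = 4) in controls and 0.98 ± 0.12 (SD, n = 4) in Notch-active islets, a difference of 0.23 (exact two-sided permutation test, p = 0.0286, the smallest that 4 libraries against 4 allow). Adjusted over the 3 ratios compared, p was 0.0857, which does not pass. Mt1 and Mt2 share 0 words of 31 bases, so no such word is common to both, but 58.1% of the words of Mt2 occur in other genes, nearly all in Gm45774, an antisense gene at its locus that was not analysed here. The part of that locus and of length correlation in the ratio was not tested.

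Mt3, a metallothionein known from brain, was low but rose. It had 1.06, 1.44, 1.94 and 1.79 CPM in controls and 1.76, 5.24, 5.48 and 10.6 CPM in Notch-active libraries 1, 2, 4 and 5. Notch-active library 1 lay among the controls, and the log2 fold change of 1.88 (standard error 0.47) passed narrowly (edgeR adjusted p = 0.0451), in 11 of 22 alternative fits and 1 of 8 that left out a library, that without Notch-active library 1. With limma-voom its adjusted p was 0.0808. With the length offset from longest transcripts its log2 fold change was 1.001 (edgeR adjusted p = 0.0621), and with the length correlation covariate it was 0.77 (edgeR adjusted p = 0.462). Among libraries with a length correlation above 0, it was 1.06 to 1.79 CPM in 3 controls and 1.76 CPM in 1 Notch-active library. Mt4 had 0 counts in every library. Slc30a2, which fills vesicles with zinc in secretory glands, had 0.36 to 1.60 CPM in controls and 0.48 to 1.52 CPM in Notch-active islets, and Slc30a3, of synaptic vesicles, had at most 1 count.

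Of the 14 Slc39a importers, 12 were tested and 0 passed by edgeR in either direction. DESeq2's Wald test passed 2, where it called 8.25% of all genes lower and 9.91% higher, and limma-voom passed 0. At an unadjusted p under 0.05 there were 2, Slc39a8 and Slc39a14, against 4769 of all 15082 genes tested. Slc39a8, which carries zinc and manganese into cells, was 2.31, 1.35, 1.07 and 2.60 CPM in controls and 5.27, 3.14, 3.09 and 3.83 CPM in Notch-active islets. The groups did not overlap, and the log2 fold change was 1.06 (standard error 0.34, edgeR adjusted p = 0.0805). It passed in 4 of 22 alternative fits, with DESeq2, both length offsets and the length correlation covariate (1.56 in the last, edgeR adjusted p = 0.0470). Slc39a14, a related importer of zinc, iron and manganese, was 28.5, 27.6, 20.9 and 27.5 CPM in controls and 22.4, 14.5, 13.3 and 15.5 CPM in Notch-active islets. They overlapped through control 3 and Notch-active library 1, as for Slc30a8, and the log2 fold change was −0.67 (standard error 0.19, edgeR adjusted p = 0.0645). It passed in 3 of 22 alternative fits, with DESeq2, with the acinar covariate and without Notch-active library 1 (−0.86, edgeR adjusted p = 0.00711), and was −0.34 with the length correlation covariate (edgeR adjusted p = 0.279). Slc39a7, which releases zinc from the endoplasmic reticulum and Golgi, had the most counts of the importers, with 199 to 262 CPM in controls and 204 to 351 CPM in Notch-active islets (edgeR adjusted p = 0.232).

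The zinc-sensing transcription factor Mtf1 had a log2 fold change of −0.30 and Gpr39, a zinc-sensing receptor, one of 0.27, and neither passed (edgeR adjusted p = 0.256 and 0.281). Other inputs to metallothionein genes were read from 3 lists. None of 8 glucocorticoid response genes, 8 NRF2 target genes or 6 heat shock genes passed in edgeR's test, and their median log2 fold changes were −0.24, −0.11 and −0.32. At an unadjusted p under 0.05 there were 2, 2 and 1 of them, against 4769 of all 15082 genes tested. DESeq2's Wald test passed 1, 1 and 0, where it called 8.25% of all genes lower and 9.91% higher.

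The genes whose log2 CPM followed Slc30a8 most closely over the 8 libraries, out of 9594 compared, were 6030458C11Rik, Sepsecs, Zfp174, Vcpip1 and Phldb2 (Pearson's r between 0.988 and 0.993). Slc30a7 ranked 332 on that measure with r = 0.949, and Slc30a4 ranked 721 with r = 0.924. The closest to Mt1 were Mt2 (r = 0.989), Asns (0.988), Ocel1 (0.964), Atf5 (0.957) and Arl8b (0.949). Asns encodes asparagine synthetase and Atf5 a leucine zipper transcription factor. These correlations are descriptions without a test, since the 8 points hold both groups and share the length correlation and depth of the libraries.

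**Figure D4:**
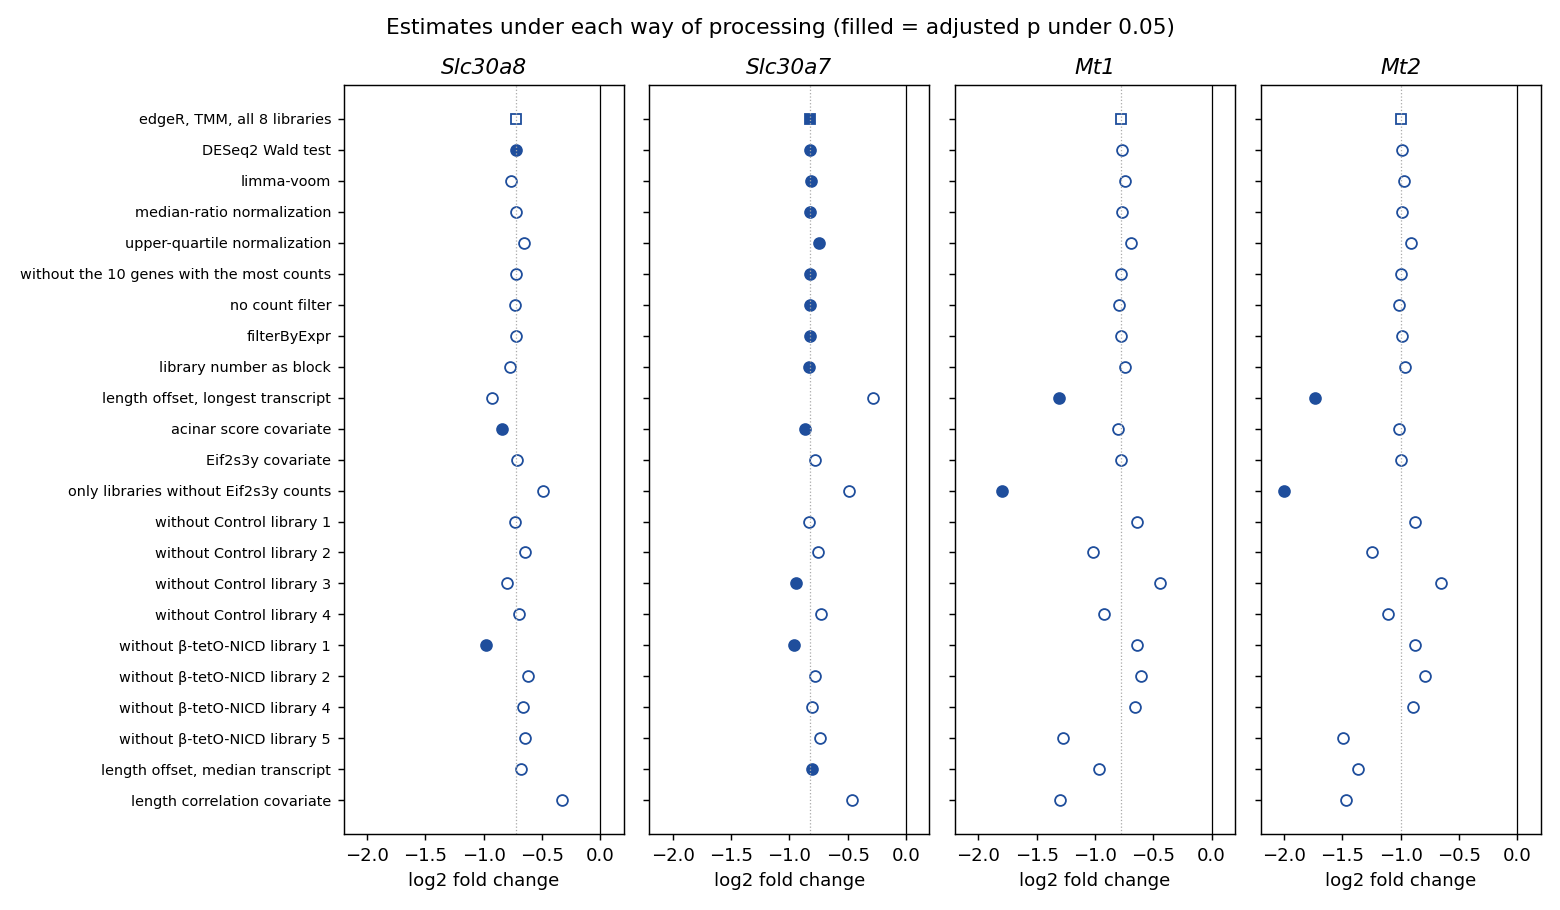
Log2 fold changes of Slc30a8, Slc30a7, Mt1 and Mt2 under each way of processing, with the reported fit as a square, alternatives as circles and filled symbols for an adjusted p under 0.05. All estimates lie below 0, from −0.98 to −0.33 for Slc30a8 and from −2.0 to −0.66 for Mt2.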

How the data were processed

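Islet RNA of 4 control and 4 β-tetO-NICD mice was measured by stranded poly(A) RNA-Seq. The authors used Kallisto for pseudoalignment to GRCm38 transcripts (its version is not given in the sources used here) and deposited whole-number counts per gene symbol, not normalized. The authors' own limma comparison (fold changes, mean expression, p values and related statistics) was not used. β-tetO-NICD columns are numbered 1, 2, 4 and 5 and mice 1 to 4, so columns 4 and 5 were assigned to the group only. The lowest chi-square between libraries of a group was 33.5 per gene, so each counted as 1 replicate. The p values measure the spread between these libraries.

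From these counts, edgeR 4.0.16 under R 4.3.3 (TMM, glmQLFit, glmQLFTest, no covariate) tested every gene that reached 10 counts in 4 or more of 8 libraries, at an adjusted p under 0.05 (Benjamini-Hochberg over all genes tested). Ratios had an exact permutation test (two-sided, 70 arrangements). Depth gives a floor of 3 counts, which covers counting error only. Alternatives were DESeq2 1.42.0, limma-voom (limma 3.58.1), other normalizations and filters, length offsets, acinar, Eif2s3y and length covariates, the replicate number as a block, the libraries without Eif2s3y counts, and leaving out each library. The fits were tested on simulated data first. Words of 31 bases were taken from the annotated GRCm38 transcripts, and promoter windows from RefSeq. The members, lists and alternatives were chosen with earlier results of these data known. Named genes were all members, genes of the zinc lists, members of other lists that passed, and the 5 genes of mean CPM at least 10 closest in pattern to Slc30a8 and to Mt1. The highest expressed gene of a list, also in that rule, is given for the β, α and δ cell lists but not for every list. One gene of a marker list is not reported here.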

Additional observations from a re-analysis of the deposited data

Results flagged for a closer look

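In 52 groups of 4 libraries, 3 had a library whose distance to the next one, as a share of the range of the group, passed Dixon's critical value, where chance gives about 2.6. Notch-active library 1 was the highest of its group in Slc30a8 (gap 0.893 of the range, 397 CPM against 210.0 to 230.1). Notch-active library 5 was the highest of its group in Mt1 (gap 0.904, 428 CPM against 146 to 173). Control 1 was the highest control in summed acinar markers (gap 0.956, 74986 CPM against 37804 to 39431).

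The contrast of β-tetO-NICD with control differed between libraries with and without Eif2s3y counts by 2.77 on the log2 scale for Mt1 (edgeR adjusted p = 0.0859) and by 2.72 for Mt2 (edgeR adjusted p = 0.141). Both fail the adjustment over 15082 genes, of which 10 passed, and the split was chosen after the data were seen, with 1 Notch-active library on one side.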

How the results depend on the processing

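The number of genes changed was 1020 as reported, 2739 with DESeq2, 1560 with the length offset from longest transcripts, 104 among the libraries without Eif2s3y counts, 430 with the length correlation as a covariate (added after the data were seen), and 319 to 4954 with 1 library left out, the most without Notch-active library 1. Members called lower numbered 1 as reported (Slc30a7) and 2 with DESeq2 or the acinar covariate (Slc30a7 and Slc30a8). With the length offset from longest transcripts, and among the libraries without Eif2s3y counts, the 2 were Mt1 and Mt2, and Slc30a7 did not pass. The number was 0 with the Eif2s3y or length correlation covariate, and 0 to 3 with 1 library left out, the most without Notch-active library 1. No setting called a member higher. The sign turned for Slc30a1 among the libraries without Eif2s3y counts (−0.10), for Slc30a6 with upper-quartile normalization (0.0385) and without Notch-active library 1 (0.0488, the highest of −0.0818 to 0.0488 with 1 library left out), and for Slc30a9 with the length correlation covariate (−0.0451). The difference in the log2 ratio of Slc30a8 to insulin was −0.53 to 0.18 with 1 library left out. With the mean of the β cell list without insulin as the denominator in place of insulin, it was 0.59. The difference in the Mt1 to Mt2 ratio was 0.17 to 0.26 with 1 library left out, where the exact permutation p cannot fall below 0.0571. The cause of these shifts was not tested. Upper-quartile normalization moved the median of all genes to 0.08. Replicate numbers shared by mice did not pair the libraries (correlation of deviations 0.28 for number 1 and −0.09 for number 2). With numbers 1 and 2 as blocks, and all other libraries pooled in a further block, 970 genes were called, Slc30a7 again passing. Depth limits Slc30a10, Slc30a3 and Mt4, which lie at or under the floor in every library, and Slc39a2 and Slc39a12, which had too few counts to be tested.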
